A study of Mus musculus with 30 samples.

Results

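WTiMOS MPP4 cells of mice aged 24 months were compared between the T2 and the T1 population, with 3 libraries of each. The 6 libraries are those whose labels give this genotype, cell type and age, out of 30 in the series. The series asks what the transcription factor Bcl11a does inside multipotent progenitors, marrow cells downstream of blood stem cells that have not yet committed to a lineage. T1 and T2 cells of MPP3, a subset known for myeloid output, and of MPP4, a subset known for lymphoid output, were isolated by flow cytometry from animals labelled WTiMOS or KOiMOS, at 3 or 24 months. For this comparison both groups are WTiMOS, bone marrow, MPP4 and 24 months, and differ by label only in WTiMOS_T1 against WTiMOS_T2. The labels do not say which state of Bcl11a each population carries, which allele, promoter or agent marks it, whether T1 and T2 cells came from the same animals, or whether animals were pooled. Nothing says that replicates were separate animals, so the p-values reflect how much these libraries vary, which may be technical variation.

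Bcl11a encodes a zinc finger repressor that is needed for lymphoid development, silences fetal globin genes in red cells and acts with the NuRD deacetylase complex. MPP4 cells express the cytokine receptor Flt3, have begun to transcribe lymphoid genes, and still hold low levels of myeloid transcripts. Id proteins, which bind E proteins such as Tcf3 and keep them off DNA, restrain lymphoid programmes.

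Values are TPM, a measure of transcript abundance per length that gives every library the same total, so the depth in reads is unknown. All levels below are rescaled TPM: each library of deposited TPM was divided by its median ratio to the average library, taken over genes that exceed 1 TPM in every one of the 6. Changes are T2 minus T1 on the log2(rescaled TPM + 1) scale, with the standard error (SE) from limma, and this scale understates the change of low genes. A gene is called at an adjusted p below 0.05. Scale factors were 0.854 to 0.864 in T1 and 1.16 to 1.18 in T2, genes at 1 TPM or more numbered 10868 to 11498 a library, and the 50 most abundant genes held 21.2% to 21.4% of all TPM in T1 and 18.5% to 18.6% in T2. The median change over all genes tested was 0.04 after rescaling and 0.44 in TPM as deposited. Where the direction of a called gene named below depends on this choice, the turn is stated.

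Sex-linked RNA differed between the groups. Summed over 4 genes of the Y chromosome (Eif2s3y, Ddx3y, Kdm5d, Uty) the level was 0.0607, 0.0722 and 0.184 deposited TPM in the T1 libraries and 169, 158.5 and 159 in the T2 libraries. Xist, which silences an X chromosome in females, was at 61.7, 74.1 and 67.8 in T1 and at 34.1, 24.3 and 29.6 in T2. The groups do not overlap for either, and the same holds in the tables set beside them later: the Y-linked sum was 0 in T1 and 105.6 to 114.9 in T2 of 3-month MPP4, and 0 in T1 and 53.97 to 76.79 in T2 of 24-month MPP3. Sex-linked RNA and the T1 or T2 label therefore cannot be told apart in any of the 3 tables, and genes on X and Y were left out of the fit.

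Of 10997 genes tested, 3714 (33.8%) were called, 1625 higher in T2 (14.8%) and 2089 lower (19.0%). Changes of at least 2-fold were fewer, with 456 genes (4.15%), of which 179 were higher (1.63%) and 277 lower (2.52%). The lower genes also reached larger sizes. In TPM as deposited, where the median change was 0.44, 7168 genes were called, 6398 of them higher. Without replicate 3 of T1, 1083 genes were called higher.

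Bcl11a itself rose in T2. Its levels were 26.6, 31.0 and 30.3 in the T1 libraries and 60.7, 55.5 and 54.9 in the T2 libraries. All 3 T2 libraries lie above all 3 T1 libraries, a pattern that 48.3% of all genes tested share in one direction or the other. The change was 0.94 (SE 0.10, limma adjusted p = 5.23e-05), and stayed between 0.74 and 1.37 with trends on GC content and length removed or in TPM as deposited. The gene lies on chr11:24078056-24174123, plus strand, in GENCODE vM21 on GRCm38, as do all gene positions below.

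Of 19 tested genes in a list of Bcl11a and its partners in corepressor complexes 5 were called higher (26.3%) and 1 lower (5.26%). Bcl11a itself is counted in this list. Over all genes tested these shares were 14.8% and 19.0%. The median change of the list was 0.12, and 13 members did not pass the test. Mta2, a NuRD subunit, was at 10.7, 10.7 and 8.37 in T1 and at 17.6, 21.9 and 21.4 in T2, with no overlap, and rose by 0.96 (SE 0.14, limma adjusted p = 4.07e-04). Chd4, the NuRD remodelling ATPase, rose by 0.69. Sox6, a partner in globin silencing, averaged 0.265 in T1 and 1.43 in T2 and passed the filter on low values, which asks for 1 TPM in 3 libraries, only through T2. Without that filter 4 of 20 members were called higher and 1 lower. The histone binding subunit Rbbp4 fell by 0.51. Hdac1 and Hdac2, the deacetylases of the complex, changed by -0.03 and 0.03 without passing the test. In TPM as deposited 18 of the 19 were called higher and 0 lower, where 6398 of all 10997 genes were called higher.

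The promoters of Bcl11a, of the most increased and of some of the most decreased genes are shown here, because these genes carry the largest contrasts between the groups and Bcl11a is a DNA binding protein. Each run holds 250 bases before and 50 after a RefSeq transcript start on GRCm38.p6, in the direction of the gene. Capitals mark TGACCA, the motif of the Bcl11a zinc fingers, or TGTGGT, the core motif of RUNX factors, on either strand, so that TGGTCA and ACCACA are their reverse complements. The windows are chr11:24080445-24080744 (plus strand, Bcl11a), chr5:88527848-88528147 (minus strand, Jchain), chr16:45224087-45224386 (plus strand, Btla), chr15:75111922-75112221 (minus strand, Ly6c2) and chr16:48772013-48772312 (minus strand, Trat1).
Bcl11a: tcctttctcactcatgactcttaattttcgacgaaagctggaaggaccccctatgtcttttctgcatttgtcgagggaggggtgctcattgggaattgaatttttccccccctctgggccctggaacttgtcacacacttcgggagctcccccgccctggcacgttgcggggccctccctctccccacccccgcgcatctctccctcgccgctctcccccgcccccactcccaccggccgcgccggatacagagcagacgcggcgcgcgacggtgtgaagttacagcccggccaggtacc
Jchain: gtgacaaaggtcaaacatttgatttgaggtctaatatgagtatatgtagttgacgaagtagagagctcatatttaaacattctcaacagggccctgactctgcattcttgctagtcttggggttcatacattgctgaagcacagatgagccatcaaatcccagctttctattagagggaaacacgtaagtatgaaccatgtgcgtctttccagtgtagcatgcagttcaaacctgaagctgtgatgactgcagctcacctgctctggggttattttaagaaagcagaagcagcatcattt
Btla: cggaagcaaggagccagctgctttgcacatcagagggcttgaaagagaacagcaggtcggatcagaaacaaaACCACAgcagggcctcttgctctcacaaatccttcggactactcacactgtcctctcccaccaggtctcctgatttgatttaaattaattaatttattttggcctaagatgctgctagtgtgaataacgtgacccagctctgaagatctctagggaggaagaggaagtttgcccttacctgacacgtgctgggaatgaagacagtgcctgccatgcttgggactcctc
Ly6c2: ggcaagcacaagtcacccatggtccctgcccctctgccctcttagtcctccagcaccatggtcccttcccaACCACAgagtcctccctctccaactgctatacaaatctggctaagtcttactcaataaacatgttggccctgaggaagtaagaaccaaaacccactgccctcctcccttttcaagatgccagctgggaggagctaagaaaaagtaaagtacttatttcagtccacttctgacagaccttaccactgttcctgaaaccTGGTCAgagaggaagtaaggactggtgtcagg
Trat1: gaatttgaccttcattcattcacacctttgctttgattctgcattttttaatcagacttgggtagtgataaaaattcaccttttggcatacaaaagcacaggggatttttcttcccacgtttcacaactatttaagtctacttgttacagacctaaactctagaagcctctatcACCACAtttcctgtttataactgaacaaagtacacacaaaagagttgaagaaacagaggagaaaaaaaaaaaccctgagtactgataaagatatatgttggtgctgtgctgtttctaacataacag

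The Bcl11a and Jchain windows hold neither motif. The Bcl11a window lies inside the gene span given above and not at its first base, and 1 transcript start is shown for each gene. Btla and Trat1 hold 1 TGTGGT each, and Ly6c2 holds 1 of each motif. Among all tested genes 8252 matched a RefSeq promoter, and 1157 of their 10447 promoters (11.1%) hold TGACCA and 12.9% hold TGTGGT. For promoters of genes called at least 2-fold higher the shares are 14.1% and 15.3%, and for those at least 2-fold lower 13.9% and 22.9% (46 of 201). These are descriptions of letters in a window and were not tested.

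The 15 genes that fell most and the 15 that rose most were taken from called genes whose libraries do not overlap, so their separation comes from the choice and their values are a description. Among the 15 that fell most, several are known from myeloid, mast or T cells. Trat1, which encodes a T cell receptor adaptor (chr16:48730774-48772021, minus strand), was at 124, 143 and 142 in T1 and at 0.366, 1.26 and 1.73 in T2. Its change was -6.07 (SE 0.22, limma adjusted p = 4.69e-08), the largest of the genes named by rule. Dmkn, a secreted protein known from skin, was at 38.6, 44.2 and 46.7 in T1 and at 0, 0.200 and 0.118 in T2, and fell by 5.32. Both are near absent in T2.

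Ly6c2, a monocyte surface protein (chr15:75108158-75111970, minus strand), was at 212, 188.5 and 185 in T1 and at 11.6, 11.1 and 11.7 in T2. The fall of 3.97 (SE 0.09, limma adjusted p = 2.55e-09) is given for the symbol as deposited, since near-identical Ly6 genes can share reads. Mrgpra2a and Mrgpra2b, a pair of neighbouring and similar G-protein-coupled receptors on chromosome 7, fell by 3.792 and 3.996, with the same reservation. Lgals1, the secreted lectin galectin-1 (chr15:78926725-78930465, plus strand), was at 1585, 1705 and 1638 in T1 and at 154, 151 and 165 in T2, and fell by 3.38 (SE 0.07, limma adjusted p = 9.41e-10). Lgals1 combines a high level in T1 with the smallest SE of these 15 genes.

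The granule proteases Gzmb and Cpa3 fell by 3.75 and 3.25. Gzmb passed the filter on low values only through T1. Cpa3, known from mast cells, was at 132, 144.5 and 138 in T1 and at 12.6, 13.9 and 14.6 in T2. The other members of the 15 are Ly6k, Ly86, S100a4, Ifitm6, Trem3, Hp and Mt1, which fell by 2.98 to 3.25. Of these Mt1, a metal binding metallothionein, was at 323, 347 and 331 in T1 and at 31.4, 48.9 and 46.01 in T2.

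The 15 genes that rose most had lower levels and smaller changes. Jchain, which joins immunoglobulin polymers (chr5:88519809-88527891, minus strand), was at 0.962, 0.938 and 1.498 in T1 and at 19.7, 22.1 and 19.1 in T2. It rose by 3.33 (SE 0.15, limma adjusted p = 2.28e-07). Btla, an inhibitory receptor of lymphocytes (chr16:45224315-45257670, plus strand), was at 2.54, 2.50 and 2.13 in T1 and at 28.2, 24.4 and 19.8 in T2, and rose by 2.88 (SE 0.15, limma adjusted p = 6.53e-07). Ctse, the aspartic protease cathepsin E, was at 13.9, 14.3 and 14.7 in T1 and at 66.6, 76.9 and 90.9 in T2, a rise of 2.36. Jchain was near 1 in T1, while Ctse was well expressed in both groups.

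Ddx4, an RNA helicase known from germ cells, rose by 2.51, the TAM receptor ligand Gas6 by 2.25 and the peptidoglycan binding protein Pglyrp1 by 2.13. Emcn, a sialomucin of stem cells and endothelium, was at 4.52, 6.22 and 6.07 in T1 and at 29.0, 27.1 and 24.7 in T2. Its rise was 2.09 (SE 0.14, limma adjusted p = 2.99e-06). Nr0b2, Ppfibp2, BC016579, Gp9, Cd200, Shisa8, Slc35d3 and Fbp1 rose by 1.95 to 2.12. Gp9 passed the filter on low values only through T2.

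**Figure D1:**
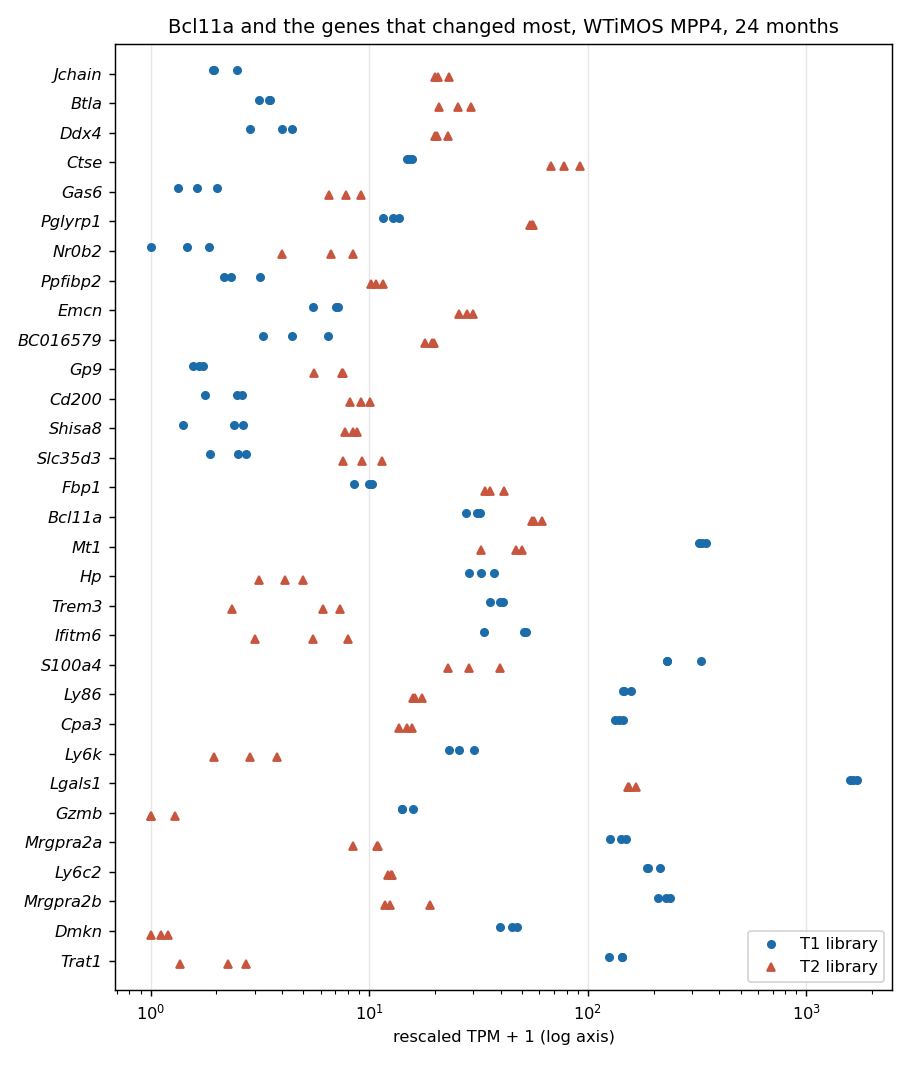
Rescaled TPM + 1 on a log axis for Bcl11a and for the 15 genes that fell most and the 15 that rose most, with 1 circle for each T1 library and 1 triangle for each T2 library. The genes other than Bcl11a were chosen for having no overlap between circles and triangles, and Trat1 and Dmkn lie near 1 in T2.

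The lists that follow hold genes of known programmes. Over all genes 14.8% were called higher and 19.0% lower, and each count is read beside these shares. The T1 and T2 libraries do not overlap for 48.3% of all genes tested, and each statement on overlap is read beside that share. Of 409 list members called, 13 had 1 TPM or more only in T2 libraries and 6 only in T1 libraries, so that they passed the filter through the group where they are high. In these bulk libraries fewer cells that express a gene and less of its RNA per cell cannot be told apart.

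**Figure D2:**
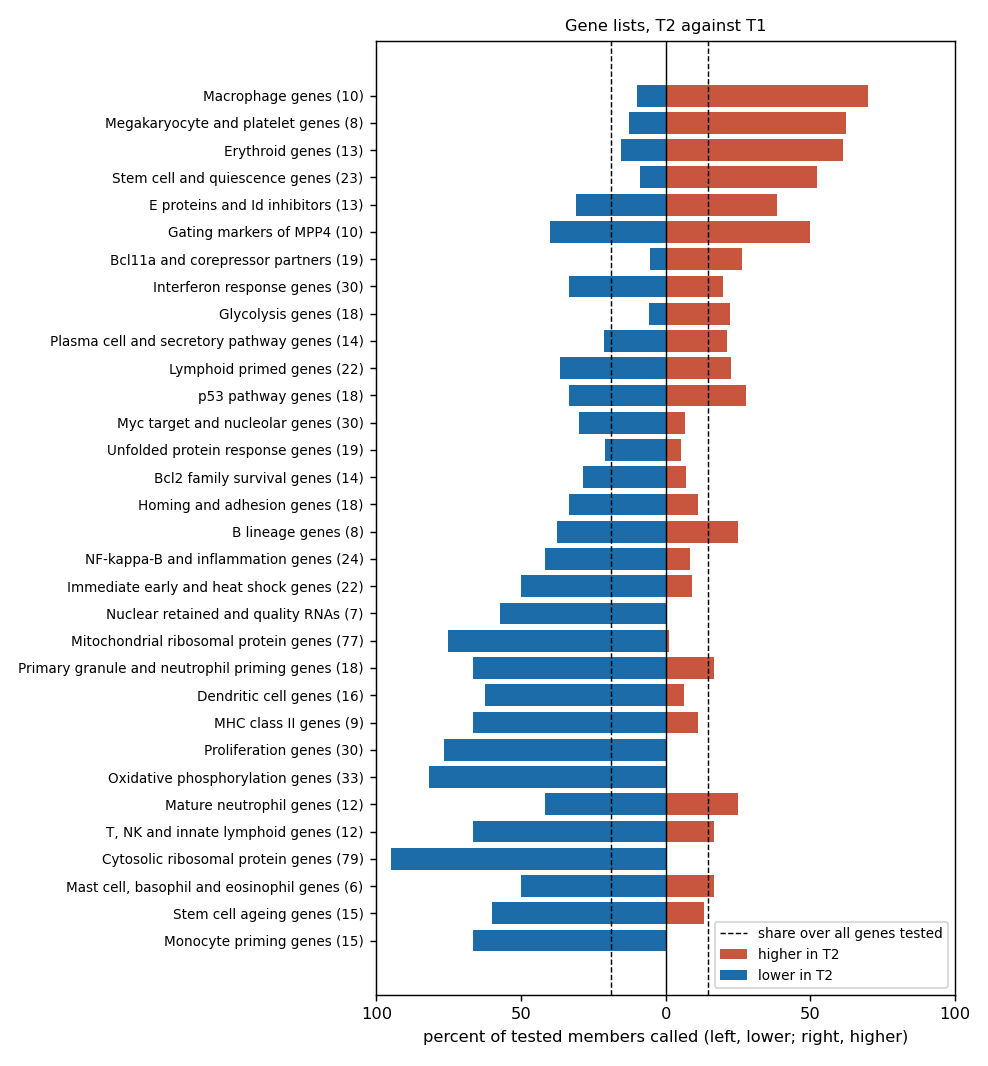
Percent of tested members called higher (bars to the right) or lower (bars to the left) in T2 for each list with 6 or more tested members, whose number stands in brackets, ordered by median change. Dashed lines mark 14.8% higher and 19.0% lower over all genes, and cytosolic ribosomal protein genes reach furthest to the left.

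The labelled type was checked first on the surface proteins that define MPP4. Kit, Flt3, Cd48, Cd34 and Ly6a were present in all 6 libraries, and Slamf1, which MPP4 lack, was between 0 and 0.397 and listed at 0 in 4 libraries. Their levels nevertheless differed: of 10 tested gating genes 5 were called higher and 4 lower. The called gene Itga2b passed the filter on low values only through T2. Flt3 was at 136, 125 and 134 in T1 and at 165, 166 and 172 in T2, and rose by 0.35 (SE 0.07, limma adjusted p = 0.00446). Kit, the receptor for stem cell factor, rose by 0.68 and Cd34 by 0.72. Ly6a, the antigen Sca-1, was at 1900, 1645 and 1657 in T1 and at 586.5, 540 and 572 in T2, and fell by 1.61 (SE 0.07, limma adjusted p = 2.28e-07). Cd48 fell by 1.203, from a mean of 2320 to 1007. For none of these 5 do the libraries overlap, which also holds for 48.3% of all genes tested.

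Lymphoid genes moved in both directions. Of 22 tested lymphoid priming genes 5 were called higher and 8 lower, with a median of -0.00, and in TPM as deposited the counts turn to 11 and 3. Ly6d, which marks progenitors bound for the B lineage, was at 104, 112 and 121.5 in T1 and at 26.2, 21.6 and 27.7 in T2, and fell by 2.12 (SE 0.11, limma adjusted p = 6.53e-07). Its libraries do not overlap between the groups. Ltb, the cytokine lymphotoxin beta, was at 11.7, 6.62 and 5.96 in T1 and at 20.03, 25.5 and 27.3 in T2, and rose by 1.52. The lymphocyte adaptor Lax1 rose by 1.27 and the transcription factor Sox4 by 0.91. Dntt, the terminal transferase, fell by 0.29, which is a rise of 0.16 that does not pass the test in TPM as deposited.

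Among 12 tested genes known from T cells, NK cells and innate lymphoid cells 8 were called lower and 2 higher, with a median of -0.68, and without the filter on low values 9 of 21 were lower and 3 higher, with a median of -0.31. Klrd1, an NK cell receptor chain, was at 40.6, 37.2 and 32.2 in T1 and at 7.83, 4.94 and 5.27 in T2, and fell by 2.44 (SE 0.16, limma adjusted p = 3.02e-06). Thy1 fell by 1.47. The Src kinase Lck rose by 0.51. Cd3e and Eomes, which define mature T and NK cells, were at 0 in all 6 libraries. Only 8 of the 16 B lineage genes passed the filter on low values, 2 called higher and 3 lower, and both higher ones passed it only through T2. Vpreb1, of the surrogate light chain, fell by 1.11 from a mean of 10.3 to 4.19, and without replicate 2 of T1 only 1 gene of the list was called lower. Pax5, which fixes B cell identity, was at 0 in all 6 libraries.

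Inhibitors of E proteins fell while an E protein rose. Id1 was at 33.6, 32.1 and 31.8 in T1 and at 4.601, 4.39 and 5.04 in T2, and fell by 2.56 (SE 0.11, limma adjusted p = 1.84e-07). Id3 was at 60.3, 56.7 and 62.0 in T1 and at 20.3, 20.7 and 25.1 in T2, and fell by 1.40. Neither overlaps, and Id2 fell by 0.84 as well. The E protein Tcf3 rose by 0.67 from a mean of 7.70 to 12.9, whereas Tcf4 fell by 0.37, which is 0.06 in TPM as deposited, and Tcf12 changed by 0.19 without passing the test. Of the list's 13 genes 5 were called higher and 4 lower, the other called genes being Lmo2, Mycn, Myb and Hhex, which rose by 0.38 to 1.02. The calls of Tcf4 and Myb are lost when single libraries are left out, for Tcf4 without replicate 2 or 3 of T1 or 2 of T2 and for Myb without any of the 6 but replicate 3 of T2, with limma adjusted p of up to 0.126 and 0.135.

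Myeloid priming genes were mostly lower in T2. Of 15 tested monocyte genes 10 were called lower and 0 higher, with a median of -0.998, and 9 were lower and 3 higher in TPM as deposited. Ms4a6c, a membrane protein of monocytes, was at 198, 253 and 229 in T1 and at 67.0, 55.2 and 58.02 in T2, and fell by 1.90 (SE 0.11, limma adjusted p = 1.19e-06). Ccr2, the receptor that brings monocytes out of the marrow, fell by 2.23 from a mean of 13.3 to 2.05, without overlap. The members that did not pass are Irf8, Cd68, Tyrobp, Fcer1g and Mpeg1, with changes from -0.55 to 0.02. Summed over the list the T1 libraries ranged from 1491 to 1609 and the T2 libraries from 729 to 746.

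Of 18 tested primary granule and neutrophil priming genes 12 were called lower and 3 higher, with a median of -0.48. In TPM as deposited 7 were lower and 5 higher. Ctsg, the granule protease cathepsin G, was at 1493, 1473 and 1402 in T1 and at 290, 329 and 324 in T2, and fell by 2.21 (SE 0.07, limma adjusted p = 1.79e-08). Elane, neutrophil elastase, fell by 2.39 and the related protease Prtn3 by 1.16. Mpo, the myeloperoxidase of the same granules, went the other way: it was at 81.6, 69.2 and 70.2 in T1 and at 79.3, 103 and 106.5 in T2. Its groups overlap, and its rise of 0.37 had a limma adjusted p of 0.0367, a call that is lost without replicate 2 or 3 of T1 or replicate 2 or 3 of T2, with a limma adjusted p of up to 0.125. Csf3r, the receptor for G-CSF, rose by 0.56 and the granule membrane protein Cd63 by 0.96.

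Dendritic cell genes were called lower in 10 and higher in 1 of 16, with a median of -0.49, and in TPM as deposited in 7 and 3. Cox6a2, a cytochrome oxidase subunit known from plasmacytoid dendritic cells, was at 168, 173 and 180 in T1 and at 20.9, 24.9 and 21.6 in T2. Its fall was 2.90 (SE 0.09, limma adjusted p = 1.79e-08), without overlap, and Cd209a, which passed the filter only through T1, and Pld4 fell by 2.29 and 1.49. For MHC class II, which presents peptides to T cells, 6 of 9 genes were called lower and 1 higher, with a median of -0.57. The fall depends on the scale: 2 were lower and 2 higher in TPM as deposited, and 1 and 1 after a trend on abundance was removed. Cd74, the invariant chain, fell by 0.82 from a mean of 634 to 363. H2-Ob, which restrains peptide loading in B cells, rose by 0.83.

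More stem cell genes were called higher than lower in T2. Of 23 tested genes of stem cells and quiescence 12 were called higher and 2 lower, with a median of 0.45. The sum of the list went the other way, at 2318 to 2593 in the T1 libraries and 1327 to 1436 in the T2 libraries. Hlf, a transcription factor that marks stem cells, was at 9.64, 11.9 and 11.9 in T1 and at 43.0, 36.4 and 33.6 in T2, and rose by 1.67 (SE 0.13, limma adjusted p = 7.78e-06). Txnip, which restrains glucose uptake, was at 86.7, 74.1 and 72.9 in T1 and at 223, 198 and 206 in T2, and rose by 1.41. Both are without overlap. The endothelial protein C receptor gene Procr rose by 1.19, Mecom by 1.04 and Meis1 by 0.68. The members that fell are Ly6a and Cdkn1a, the cell cycle inhibitor p21, which was at 254, 235 and 234.5 in T1 and at 60.1, 62.4 and 68.6 in T2 and fell by 1.91 (SE 0.08, limma adjusted p = 1.67e-07).

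Genes known from aged stem cells were mostly lower. Of 15 tested 9 were called lower and 2 higher, with a median of -0.85, and Mt1 stands in this list as well. The called genes Mt2 and Ehd3 passed the filter on low values only through T1. Without the filter on low values 10 of 21 were lower and 1 higher, with a median of -0.42. Selp, the adhesion molecule P-selectin, was at 19.2, 17.8 and 15.7 in T1 and at 5.36, 4.52 and 5.49 in T2, and fell by 1.60 (SE 0.13, limma adjusted p = 1.15e-05). Nupr1, a stress induced nuclear protein, fell by 2.59 from a mean of 15.9 to 2.05, and neither gene overlaps. The adhesion molecule Alcam rose by 0.56, and Clu, the chaperone clusterin, by 0.60, calls that are both lost after a trend on abundance was removed. The call of Alcam is also lost without replicate 1 of T1, 1 of T2 or 3 of T2, and that of Clu without replicate 1 or 3 of T1 or 1 or 2 of T2, with limma adjusted p of up to 0.0936 and 0.0851.

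**Figure D3:**
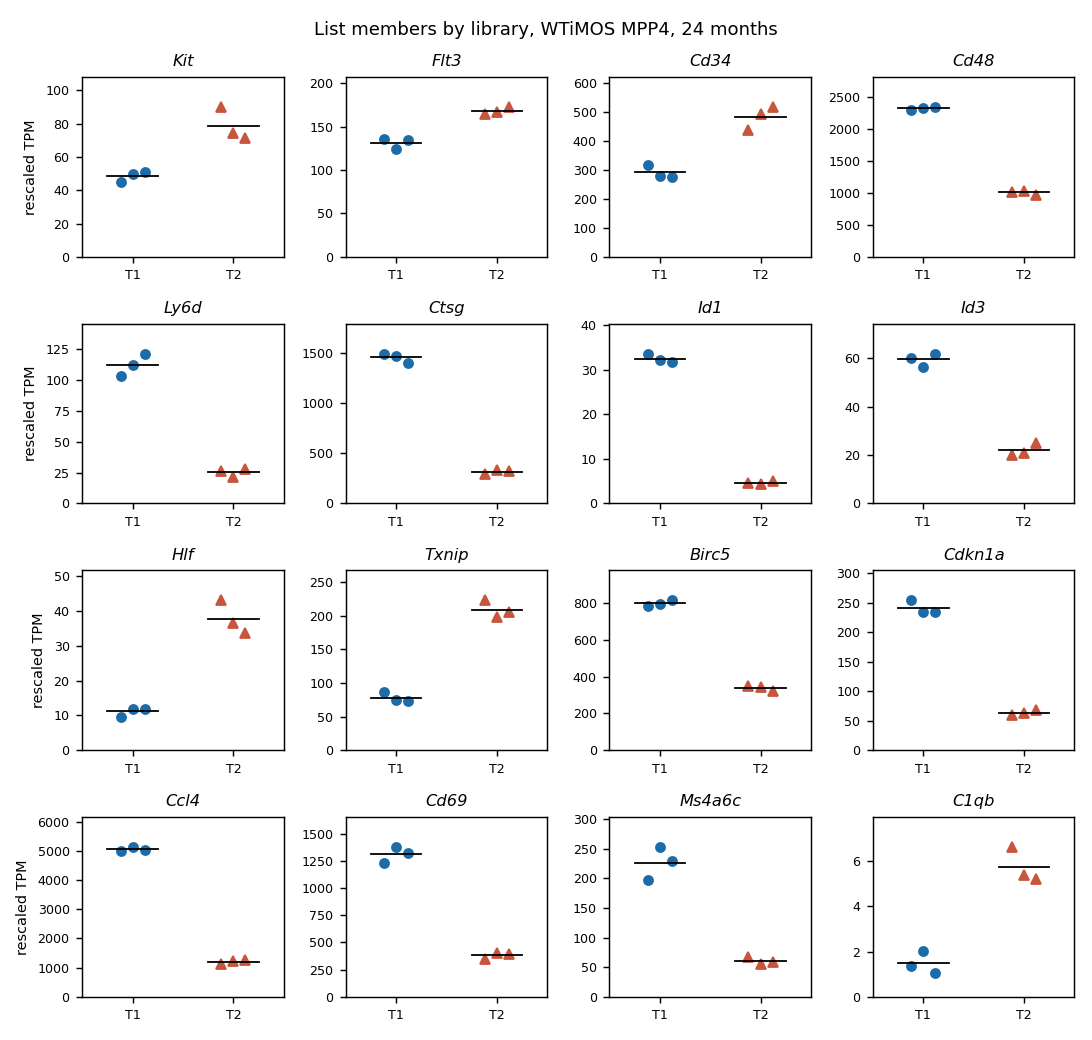
Rescaled TPM of 16 list members on linear axes from 0, with 1 point for each library and a bar at the mean of each group of 3. Kit, Flt3, Cd34, Hlf, Txnip and C1qb are higher in all T2 libraries, and the other 10 genes are lower in all T2 libraries. The groups do not overlap, in one direction or the other, for 48.3% of all genes tested.

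Markers of other cell types that a gate could hold also differed. Of 10 tested macrophage genes 7 were called higher and 1 lower, with a median of 1.30. The sum of all 16 listed was 13.2 to 16.9 in the T1 libraries and 29.8 to 37.9 in the T2 libraries. C1qb, a complement component of macrophages, was at 1.37, 2.03 and 1.05 in T1 and at 6.61, 5.39 and 5.21 in T2, and rose by 1.45 (SE 0.19, limma adjusted p = 1.95e-04). Spic, the transcription factor of red pulp macrophages, rose by 1.63. Of the 8 called genes 4, Vcam1 among them, passed the filter only through T2, and without the filter 9 of 14 were called higher and 0 lower, with a median of 0.71. All of these stay low beside the MPP4 markers, Marco and Mertk were at 0 in all libraries, and the part of such cells in the other results was not tested.

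More erythroid and megakaryocyte genes were called higher than lower. Of 13 tested erythroid genes 8 were called higher and 2 lower, with a median of 0.52, and the sum of the list was 722 to 780 in T1 and 952 to 1163 in T2. Without replicate 3 of T1, or without replicate 3 of T2, 5 were called higher. Car2, a carbonic anhydrase, was at 485, 476 and 479 in T1 and at 624, 742.5 and 758 in T2, and rose by 0.55 (SE 0.08, limma adjusted p = 4.69e-04). The adult beta globin Hbb-bt rose by 1.31 from a mean of 4.88 to 13.5, the globins being near-identical genes whose reads may have been split. The called gene Zfpm1 passed the filter on low values only through T2. Without that filter 7 of 21 erythroid genes were called higher and 2 lower, with a median of 0.29. Tfrc, the transferrin receptor, fell by 0.89, and Gata1, Klf1 and Epor did not pass the filter on low values. Of 8 tested megakaryocyte genes 5 were called higher and 1 lower, with a median of 0.98, but 3 of these passed the filter only through T2. Without the filter 5 of 15 were called higher and 3 lower, with a median of 0.196. Pf4, a platelet chemokine, rose by 1.15 from a mean of 6.93 to 16.6, and the sums of the list overlapped between the groups, at 132 to 151 in T1 and 140 to 166 in T2.

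Only 6 of 20 mast cell, basophil and eosinophil genes passed the filter, 3 of them called lower and 1 higher, with a median of -0.85 that is -0.19 over 10 genes without the filter. Of the called genes Gzmb passed the filter only through T1 and Prg2 only through T2. The basophil protease gene Mcpt8 fell by 1.58 from a mean of 145 to 48.0. The sum of the list was 290 to 335 in T1 and 66.4 to 83.4 in T2, while 10 members were at 0 in all 6 libraries, among them Fcer1a, Ms4a2, Cma1 and Tpsb2. Genes of plasma cells and the secretory pathway were called higher in 3 and lower in 3 of 14, with a median of 0.03, and 8 higher and 1 lower in TPM as deposited. Without replicate 1 of T2, 5 were called higher. Jchain was accompanied by a rise of 0.84 in Sdc1, the plasma cell antigen CD138, whereas Mzb1 and Xbp1 changed by -0.11 and 0.19 without passing the test.

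Cell cycle genes were lower in T2 on the rescaled scale. Of 30 tested proliferation genes 23 were called lower and 0 higher, with a median of -0.58. In TPM as deposited 7 were lower and 5 higher, and with a trend on abundance removed 19 were lower and 0 higher. Birc5, survivin, was at 785, 798 and 816 in T1 and at 348, 342 and 322 in T2, and fell by 1.24 (SE 0.06, limma adjusted p = 5.94e-07). Ube2c, which helps to degrade cyclins, fell by 1.25, the mitotic cyclin gene Ccnb1 by 0.98 and the replicative helicase subunit gene Mcm2 by 0.89. These 4 fell under all 3 scales. Among the other helicase subunit genes, Mcm3, Mcm5, Mcm6 and Mcm7 changed by -0.22 to -0.11 without passing the test.

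Stress and signalling genes held several large single changes. Of 24 tested NF-kappa-B and inflammation genes 10 were called lower and 2 higher, with a median of -0.26, which is 0.17 in TPM as deposited, with 8 lower and 6 higher. Ccl4, a chemokine of activated leukocytes, was at 5005, 5132 and 5034 in T1 and at 1139, 1223 and 1267 in T2, and fell by 2.06 (SE 0.06, limma adjusted p = 8.70e-09). Its neighbour and relative Ccl3 was at 1426, 1452 and 1413 in T1 and at 1513, 1430 and 1440 in T2. Ccl3 overlaps between the groups and changed by 0.03 (SE 0.06, limma adjusted p = 0.716), but rose by 0.69 once a trend on abundance was removed. The early activation antigen Cd69 fell by 1.78, from a mean of 1310 to 380, and Tnfaip3, a brake on NF-kappa-B, by 1.51.

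Immediate early and heat shock genes, which also respond to the handling of cells, were called lower in 11 and higher in 2 of 22. In TPM as deposited 7 were lower and 7 higher, and without replicate 1 of T2 4 were called higher. Klf2, a quiescence factor of lymphocytes, fell by 1.98 from a mean of 128 to 31.8 and the stress factor Atf3 by 2.02, both under all 3 scales. Fos fell by 0.29, which is 0.16 higher without a call in TPM as deposited and a call of 0.32 higher once the abundance trend was removed, while Jun and Egr1 rose by 0.33 and 0.44. The call of Jun is lost without replicate 2 or 3 of T1 or replicate 2 or 3 of T2, with a limma adjusted p of up to 0.117. Of 18 p53 pathway genes 6 were called lower and 5 higher, turning to 5 and 8 in TPM as deposited. Those that fell include Plk2, Fas and Pmaip1, a kinase, a death receptor and a BH3-only protein, by 2.49, 2.53 and 2.37. Fas passed the filter only through T1 and the called gene Sesn2 only through T2.

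Of 30 interferon response genes 10 were called lower and 6 higher, and in TPM as deposited 4 lower and 18 higher. Ifi27l2a fell by 1.82 from a mean of 234 to 66.2, whereas Isg15, the ubiquitin-like modifier, rose by 0.84 from 14.2 to 26.2. Among 18 homing genes Itgb7 and Cxcr4 fell by 1.26 and 0.80 and Ccr7 rose by 1.03. The list had 6 genes lower and 2 higher, turning to 5 and 9 in TPM as deposited. Its called gene Vcam1 passed the filter only through T2. Ddit3, the stress factor CHOP, fell by 1.41 among 19 genes of the unfolded protein response, of which 4 were lower and 1 higher and, in TPM as deposited, 1 lower and 10 higher. Bcl2 itself fell by 0.49 and the BH3-only gene Bid rose by 0.84, in a list of 14 with 4 lower and 1 higher that turns to 1 and 6.

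Genes of translation and respiration were mostly lower on the rescaled scale, and the counts depend on the scale. Of 79 tested cytosolic ribosomal protein genes 75 were called lower and 0 higher, with a median of -0.70. TPM as deposited gave 48 lower and 5 higher and removal of a trend on abundance 17 lower and 6 higher, with medians of -0.25 and -0.07. Summed over all 84 listed genes, those not tested included, the level was 150700 to 165700 in T1 and 96350 to 99860 in T2. Rps27l, a ribosomal protein paralogue, was at 2078, 2351 and 2211 in T1 and at 1057, 1041 and 1035 in T2, without overlap, and fell by 1.08 (SE 0.06, limma adjusted p = 1.42e-06). Reads of these genes can be shared with processed pseudogenes.

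Of 33 tested nuclear genes of oxidative phosphorylation 27 were called lower and 0 higher, with a median of -0.62. In TPM as deposited 15 were lower and 6 higher, and without the abundance trend 7 were lower and 5 higher. Cox5b, a subunit of cytochrome oxidase, was at 1364, 1545 and 1503 in T1 and at 654, 800.1 and 792.5 in T2, and fell by 0.98. Of 77 mitochondrial ribosomal protein genes 58 fell and 1 rose, with 22 and 16 in TPM as deposited. Of 30 nucleolar and Myc target genes 9 fell and 2 rose, a split that turns to 4 and 21 in TPM as deposited, and Npm1, nucleophosmin, fell by 0.79 in a call that was lost without the abundance trend. Of 18 glycolysis genes 4 were higher and 1 lower, and Ldhb, a lactate dehydrogenase subunit, was at 45.8, 43.5 and 48.4 in T1 and at 118, 145.5 and 145 in T2, a rise of 1.55 (SE 0.10, limma adjusted p = 2.71e-06).

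Abundance moved with these changes. Across all 10997 genes the change correlated with the mean level at Pearson's r of -0.36, with transcript length at 0.17 and with GC content at 0.08, over genes of the same 6 libraries that are not independent. Of 191 genes with a mean of at least 1000 rescaled TPM 176 (92.1%) were called lower, with a median of -0.71, which is -0.01 after the abundance trend was removed. For genes below 3 rescaled TPM the median was 0.18, and 16.3% were called higher and 6.84% lower. Of 7 tested nuclear and RNA quality transcripts 4 were called lower (57.1%) and 0 higher, with a median of -0.43, against 2 lower and 3 higher in TPM as deposited. Among them Rpph1, the RNA of RNase P, fell by 1.98 and Malat1 changed by -0.07 without passing the test. The part of abundance in the results for ribosomal and respiratory genes was not tested beyond these values.

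**Figure D4:**
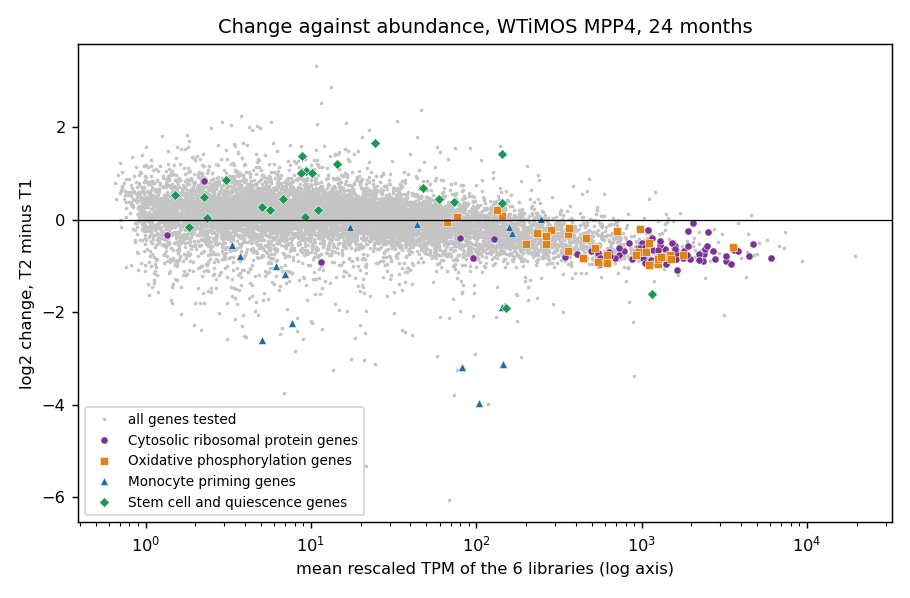
Log2 change, T2 minus T1, against the mean rescaled TPM of the 6 libraries on a log axis, for all 10997 genes (grey) and for members of 4 lists. Cytosolic ribosomal and oxidative phosphorylation genes sit at high abundance and below 0, stem cell genes lie mostly above 0, and several monocyte genes lie below -2.

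The T2 and T1 difference of 24-month MPP4 was then set beside that of 3-month WTiMOS MPP4 and of 24-month WTiMOS MPP3, each rescaled and fitted in its own table. Both of the following tests use the same 24-month MPP4 libraries. The limma adjusted p of a difference comes from a t test on the estimates and combined standard errors of both limma fits. Across 10713 genes the change correlated with that of 3-month MPP4 at r = -0.21, and across 10609 genes with that of 24-month MPP3 at r = 0.64. Of 3622 called genes tested at both ages, 588 (16.2%) were called in the same direction at 3 months and 1747 (48.2%) in the opposite one. These shares were 5.94% and 79.7% of 7032 called genes in TPM as deposited. Of 3599 called genes tested in both cell types, 1825 (50.7%) were called in the same direction in MPP3 and 97 (2.7%) in the opposite one. These shares stand beside a background of 52.3% of genes called in 3-month MPP4 and 37.4% in 24-month MPP3.

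The difference between ages was itself called for 5638 of 10713 genes (52.6%), and that between cell types for 1927 of 10609 (18.2%). Each age and cell type has its own table, so these differences cannot be told apart from differences between tables. Bcl11a rose in all 3 settings, from a mean of 29.4 to 86.4 in 3-month MPP4 (1.52) and from 11.9 to 36.4 in 24-month MPP3 (1.55). Its rise in 24-month MPP4 was smaller than at 3 months by 0.59 (SE 0.14, limma adjusted p = 0.00126), but in TPM as deposited it was larger by 0.66 (limma adjusted p = 1.72e-04). It was smaller than in MPP3 by 0.61 (SE 0.19, limma adjusted p = 0.0318). That call was lost without replicate 2 or 3 of T1 or replicate 2 or 3 of T2, where the difference was -0.59 to -0.57 with limma adjusted p of 0.0534 to 0.0604.

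Highly expressed genes turned between the 24-month and the 3-month table. Cytosolic ribosomal protein genes were called higher in T2 in 75 and lower in 1 of 78 at 3 months, with a median of 1.49, against 0 and 75 at 24 months. In 3-month MPP4 the share of all genes called higher was 25.2%, and called lower 27.1%. Scale factors of the 3-month libraries also went the other way, at 1.30 to 1.36 in T1 and 0.722 to 0.801 in T2, and the change there rose with abundance at r = 0.30. Ccl4 fell by 2.06 against a rise of 1.23, a difference of -3.29 (SE 0.08, limma adjusted p = 2.60e-17). Cd52, a small glycoprotein of leukocytes, was at 1185, 1174 and 1095 in T1 and at 435, 470 and 475 in T2 at 24 months, a fall of 1.32, while at 3 months its mean went from 340 to 1563. The values for Cks2, Snrpe, Rpl35a, Rps27l and Ifitm1 turned in the same way, with falls of 0.52 to 1.34 at 24 months and rises of 1.60 to 2.32 at 3 months.

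Genes that changed alike at both ages were fewer. Trat1, Ly6c2, Mrgpra2a, Mrgpra2b and Hp fell in T2 at 3 months too, by 2.62, 2.19, 3.26, 3.72 and 3.15. Jchain, Btla, Ctse, Pglyrp1, Emcn and Ddx4 rose at 3 months by 2.31, 1.47, 1.90, 2.20, 1.90 and 1.47. Cdkn1a fell at both ages, by 1.62 at 3 months.

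Between MPP4 and MPP3 at 24 months 97 of the 3599 called genes were called in opposite directions and 1677 were not called in MPP3. Cytosolic ribosomal protein genes were called higher in 10 and lower in 7 of 79 in MPP3, with a median of -0.055, where 37.4% of all genes were called. In MPP4 they were called higher in 0 and lower in 75, or in 6 and 17 after a trend on abundance was removed. Ly6d fell by 2.12 in MPP4 and rose by 1.84 in MPP3, from a mean of 43.0 to 156, a difference of -3.96 (SE 0.19, limma adjusted p = 6.63e-11). Jchain rose in both, by 3.33 and by 7.30, the latter from 14.1 to 2395, a difference of -3.97 (SE 0.20, limma adjusted p = 3.85e-11). Gstm1, a glutathione transferase, fell by 0.27 in MPP4 and by 3.32 in MPP3, so that the difference was 3.05 (SE 0.13, limma adjusted p = 3.85e-11). The fall in MPP4 is small, its call is lost without replicate 2 or 3 of T1 (limma adjusted p of up to 0.0562), and in TPM as deposited it is a rise of 0.18. The lectin receptor Clec12a fell by 1.63 in MPP4, from a mean of 269 to 86.1, and by 4.16 in MPP3. The beta globin Hbb-b2 rose by 1.19 in MPP4 and by 4.35 in MPP3.

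**Figure D5:**
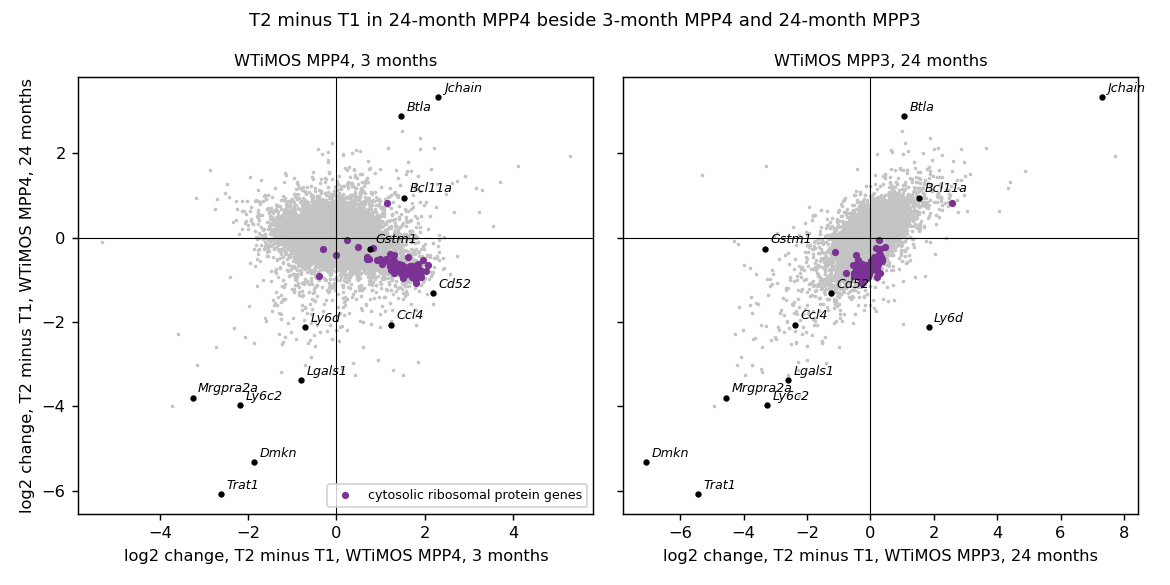
Log2 change, T2 minus T1, of each gene in 24-month MPP4 (vertical) against that in 3-month MPP4 (left) and in 24-month MPP3 (right), with cytosolic ribosomal protein genes in purple. Most ribosomal protein genes lie below 0 and to the right at 3 months, and Ly6d lies below 0 and to the right in MPP3.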

How the data were processed

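Total RNA of sorted cells was amplified with a low-input cDNA kit, per the labels' protocols. The deposited tables hold TPM per gene symbol, computed by the authors. HISAT2, StringTie, featureCounts, DESeq2 and mm10 are named, without versions or roles, per the submitters' processing notes. Read depth, strandedness and the counting of shared reads: not given in the sources used here.

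The table has 24421 symbols. A gene was kept if 3 or more of the 6 libraries had 1 TPM or more (11366 genes), 369 X or Y linked genes were left out, and 10997 were tested, 10562 of them with a GENCODE vM21 entry. TPM were rescaled by median ratios, taken as log2(TPM + 1) and fitted with limma 3.58.1 (trend, robust) in R 4.3.3 on 4 residual degrees of freedom, two-sided, with Benjamini-Hochberg adjustment over all genes and a threshold of 0.05. The fit was tested on simulated data. Differences between tables combined the standard errors of separate fits with Satterthwaite degrees of freedom.

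Members and lists were chosen with earlier results of these data known. Genes named are Bcl11a, the 15 that rose and the 15 that fell most among called genes without overlap whose higher group averages 5 TPM or more, the 5 list members (or fewer) with the lowest p in every list, and for differences between tables the 8 genes with the lowest adjusted p. Predicted genes, pseudogenes and genes without a position were left out of this rule, some genes that it names are not reported here, and other list members are named with values to describe a list. Alternatives tried were a pseudocount of 0.1, no filter, no rescaling, X and Y genes kept, a replicate block, removal of trends on GC content and length, each library left out, a spread from all 30 libraries, and 1 fit of both tables for the differences. Removal of a trend on abundance (cyclic loess), and leaving out libraries for the differences, were added after the data were seen.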

Additional observations from a re-analysis of the deposited data

Results flagged for a closer look

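The results here are differences of the T2 and T1 change between tables that passed the test of the difference itself (limma fits of each table, Benjamini-Hochberg adjusted). Between 24-month and 3-month MPP4, 5638 of 10713 genes differed. The log2 difference was -3.52 for Cd52, -3.29 for Ccl4, -2.94 for Cks2, -2.89 for Rps27l, -2.84 for Ifitm1, -2.80 for Snrpe, -2.75 for Rpl35a and -0.59 for Bcl11a.

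Between MPP4 and MPP3 at 24 months 1927 of 10609 genes differed. The log2 difference was 3.08 for Serpine2, 3.06 for Gapt, 3.05 for Gstm1, 2.52 for Clec12a, 1.95 for Mgst1, -3.17 for Hbb-b2, -3.96 for Ly6d, -3.97 for Jchain and -0.61 for Bcl11a. Serpine2, a protease inhibitor, averaged 2.96 rescaled TPM in T1 and 1.38 in T2 of MPP4, against 71.8 and 4.21 in MPP3. Gapt, an adaptor protein, averaged 5.23 and 5.24 in MPP4 and 19.7 and 1.53 in MPP3.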

How the results depend on the processing

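TPM as deposited moved the counts most: 7168 genes called (6398 higher, 770 lower), 9342 differing between ages (8509 higher, 833 lower), and 1873 higher and 482 lower between cell types. On that scale Atf4, Calr, Cd79b, Gas5 and H2-DMa turned from falls to 0.082, 0.0522, 0.0785, 0.0216 and 0.0016, none passing the test. Of these Atf4 and Cd79b were at -0.361 and -0.364 after rescaling. The age difference of Bcl11a turned from -0.585 to 0.662. Without the abundance trend Gas5, H2-DMa, Nkg7 and Nme1 turned from falls to 0.109, 0.0178, 0.126 and 0.0646, none passing the test. With that trend removed 2761 genes were called, and 2146 of the 3714 kept call and direction. Of the 3714, 45 were then called in the opposite direction, and 44 were in TPM as deposited. The turns of Dntt, Fos, Tcf4 and Gstm1 are given above. Leaving out 1 library gave 2844 to 3524 genes called, 1083 to 1478 higher and 1747 to 2046 lower, 5191 to 5733 differing between ages and 1557 to 2100 between cell types. Of 169 genes named in the comparison, 148 kept direction and call without the abundance trend, 146 in TPM as deposited and 162 or more under each other setting.

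Deviations from the group means of same-numbered T1 and T2 libraries correlated at -0.20, -0.06 and -0.07 for numbers 1 to 3. With 3 libraries a group these values cannot show whether the replicate numbers pair the samples. With the replicate block 2967 genes were called, and Snhg12 (adjusted p = 0.0603) and the cell type difference of Bcl11a (0.07) lost their calls. Other Bcl11a values for that difference were 0.0589 without a filter, 0.201 in TPM as deposited and 0.0622 without the abundance trend.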
